A study of Mus musculus with 6 samples.

Results

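The genes through which cells of the osteoblast lineage signal to osteoclasts and to blood-forming cells of the marrow were examined in bone cells from control and dexamethasone-treated mice. The 10 genes were chosen by symbol, with earlier results of these data known. They are Tnfrsf11b, Tnfsf11, Csf1, Il34, Cxcl12, Kitl, Vcam1, Il7, Lepr and Ebf3. Of these, 9 had a row in the expression table of 29616 genes that was used. Tnfsf11, which encodes RANKL, is not analysed here, so no ratio of RANKL to its decoy receptor is given. Every gene of the table had at least 1 read in some library. The test across genes required a gene to average 10 or more normalized counts across the 6 libraries, where a normalized count is a read count divided by the size factor of its library. Values of single libraries are listed below in the order of replicates 1, 2 and 3. The minimum left 17442 genes and 8 of the 9 members, since Ebf3 was under this minimum.

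The RNA came from mice whose strain is C57BL/6 in the sample labels and C57BL/6J in the methods of the study, and the labels name the material only as bone cells. According to the study, the cells sequenced were isolated as Osteocalcin-positive from bones whose marrow had been removed. The dexamethasone group (n = 3 libraries) was given this synthetic glucocorticoid every day over 4 weeks, beginning at 8 weeks of age, at a dose of 0.08 µg per g, and the control group (n = 3 libraries) is labelled only as control. The study used littermates as controls and names saline as the control treatment in its bone imaging of this model, but calls the controls non-treated where PCR was run on Osteocalcin-positive cells. For the sequenced controls neither is stated. Whether each library stands for 1 mouse or several pooled mice is not given in the sources used here.

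Osteoblast-lineage cells control the formation of osteoclasts, the bone-resorbing cells, by secreting colony-stimulating factors that keep osteoclast precursors alive and by balancing RANKL against osteoprotegerin, the soluble decoy receptor that captures it. Stromal cells of the same lineage also maintain blood-forming stem cells and early lymphocytes with secreted or membrane-bound factors. Among these, CXCL12 retains stem cells in the marrow, KIT ligand supports their survival, interleukin 7 is required by early B cells, and VCAM1 anchors cells that carry the matching integrins. Lepr and Ebf3 mark the stromal cells that make much of the CXCL12 and KIT ligand in adult marrow.

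Depth was 72596611 to 89910728 reads per library. Where a gene has 0 reads, up to 3 reads remain possible from counting error alone. The treatment was visible in the glucocorticoid receptor and its direct targets, of which 6 of 8 were differentially expressed and higher and 0 lower. Among them, Fkbp5 rose from 1855 ± 37.3 to 39489 ± 2584 (SD, n = 3) and Sgk1 from 3596 ± 215 to 68542 ± 590.4 (SD, n = 3) normalized counts. The receptor gene Nr3c1 fell from 20137 ± 628 to 10607 ± 219 (SD, n = 3) normalized counts, or by 0.93 on the log2 scale.

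Of the 8 members tested, all 8 differed between the groups with a limma adjusted p-value under 0.05, and 6 also changed by 1 or more on the log2 scale, which together defined differential expression. These counts stand beside 72.5% and 22.3% of all 17442 genes tested. By the adjusted p-value alone, 5 members were higher and 3 lower with dexamethasone, beside 37.2% and 35.2% of all genes. Il34, Kitl and Lepr were differentially expressed and higher with dexamethasone, where 11.7% of all genes were. Il7, Tnfrsf11b and Vcam1 were differentially expressed and lower, where 10.6% of all genes were. Csf1 and Cxcl12 rose by less than the cut-off. The values of the groups did not overlap for any of the 8 tested members, as for 74.7% of all genes tested. The median log2 fold change of the 8 tested members was 0.46, and that of all tested genes was 0.001. In these bulk samples fewer cells of a type and less RNA per cell cannot be told apart.

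**Figure D1:**
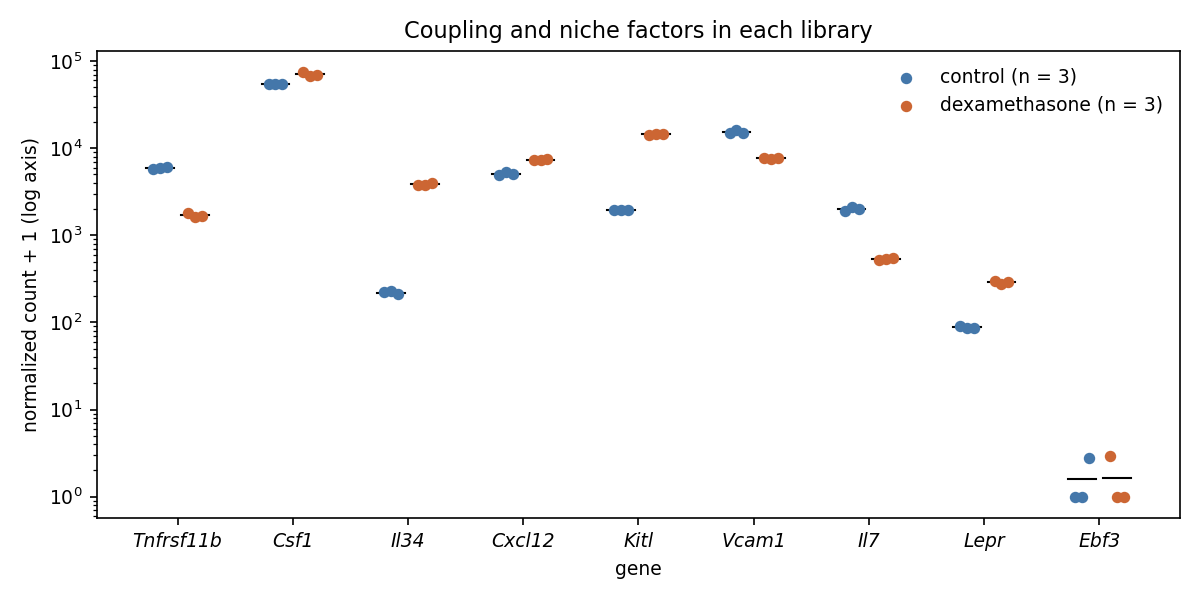
Normalized count plus 1 (log axis) of each of the 9 members with a row in the table, in the 3 control and 3 dexamethasone libraries; points are libraries and black bars are group means. Il34 sits between 208 and 228 in the controls and between 3757 and 3949 with dexamethasone before the 1 is added, Kitl between 1933 and 1964 and between 14352 and 14492, and Ebf3 lies near the bottom of the axis in both groups.

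**Figure D2:**
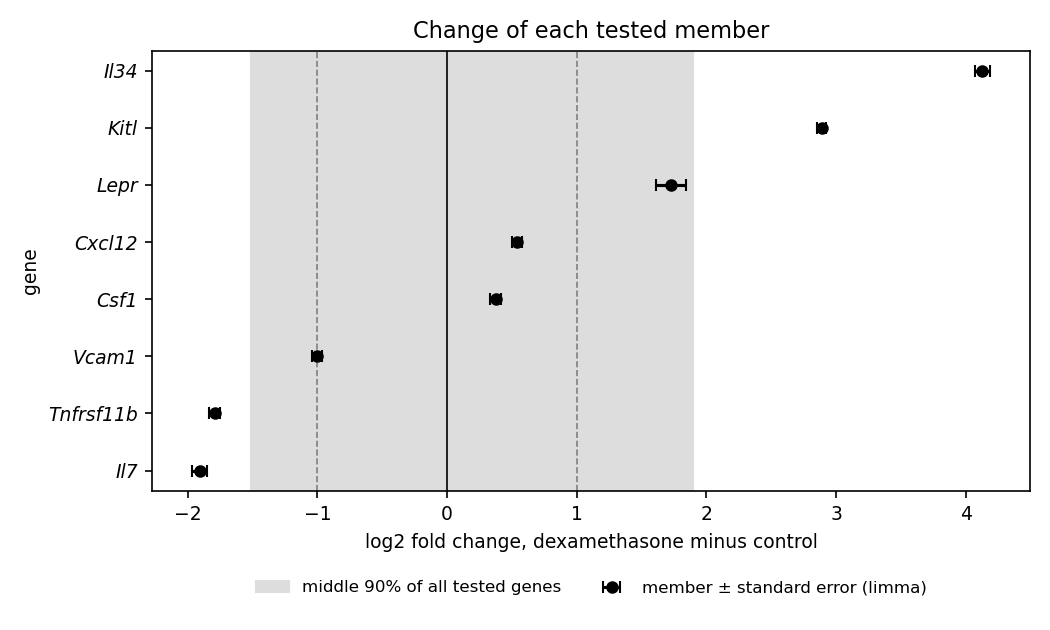
Log2 fold change (dexamethasone minus control) of the 8 tested members with limma standard errors; dashed lines mark the cut-off of 1 in either direction and the grey band holds the middle 90% of all tested genes, from -1.51 to 1.89. Il34 and Kitl lie above the band, Il7 and Tnfrsf11b below it, and the other 4 within it.

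Among the genes that act on osteoclasts, the decoy receptor and the CSF1 receptor ligands went in opposite directions. Tnfrsf11b, which encodes osteoprotegerin, had 5736, 5878 and 6071 normalized counts in the 3 control libraries. In the 3 dexamethasone libraries it had 1801, 1635 and 1679. Every dexamethasone library was therefore below every control library, and the mean fell 3.46-fold, from 5895 ± 168 to 1705 ± 86.0 (SD, n = 3). The log2 fold change was -1.79 with a standard error of 0.0428 (adjusted p = 7.42e-22 by limma). It ranked 588 from the bottom among the 17442 genes tested.

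Il34 and Csf1 encode the ligands of the same receptor, CSF1R, on osteoclast precursors and macrophages. Il34 had 220.3, 228 and 208 normalized counts in the 3 control libraries, and 3819, 3757 and 3949 in the 3 dexamethasone libraries. All 3 dexamethasone libraries were far above all 3 controls, and the mean rose 17.5-fold, from 219 ± 9.94 to 3842 ± 97.7 (SD, n = 3). The log2 fold change of 4.13 with a standard error of 0.0570 (adjusted p = 1.83e-26 by limma) ranked 139 from the top among the 17442 genes tested. In the GENCODE M21 annotation, 4.95% of the exon bases of Il34 lie opposite genes on the other strand, and the strand setting of the count is not given in the sources used here. The larger of these, Gm15894, had 1.76 to 11.0 normalized counts in the control libraries and 37.2 to 73.3 in the dexamethasone libraries, well below the counts of Il34.

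Csf1, which encodes macrophage colony-stimulating factor, had 54403, 54966 and 53961 normalized counts in the 3 control libraries. With dexamethasone it had 75130, 67368 and 69568 in the 3 libraries. The dexamethasone libraries were above the controls in every case but spread more widely, and the mean was 1.30-fold higher, 70689 ± 4000 against 54443 ± 503 (SD, n = 3). The log2 fold change of 0.38 with a standard error of 0.0423 (adjusted p = 1.99e-08 by limma) was under the cut-off. With libraries scaled to equal totals, the median log2 fold change of all genes moved to -0.11 and the log2 fold change of Csf1 to 0.26.

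The balance of the CSF1R ligands was compared within each library, where the size factor cancels. Per kilobase of exon, the ratio of Il34 to Csf1 was 0.0109, 0.0112 and 0.0104 in the 3 control libraries, and 0.137, 0.150 and 0.153 in the 3 dexamethasone libraries. Il34 thus stayed the lower of the pair in every library. The log2 ratio rose by 3.75, a 13.5-fold change, with a two-sided exact permutation p = 0.1, the smallest value that 3 against 3 libraries allow.

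**Figure D3:**
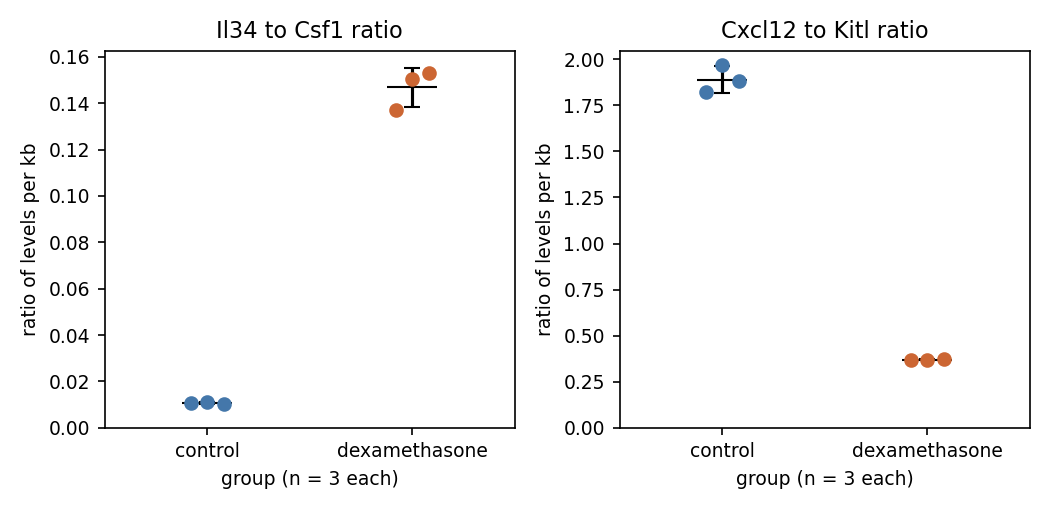
Ratio of levels per kilobase of exon within each library for Il34 to Csf1 (left) and Cxcl12 to Kitl (right); points are libraries, horizontal bars are group means and vertical bars are SD (n = 3). The Il34 to Csf1 ratio went from a mean of 0.0108 to 0.147 and the Cxcl12 to Kitl ratio from 1.89 to 0.370, with no overlap between the groups.

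Among the factors that maintain blood-forming stem cells, Kitl changed more than Cxcl12. Kitl, which encodes KIT ligand (stem cell factor), had 1950, 1964 and 1933 normalized counts in the 3 control libraries. In the 3 dexamethasone libraries it had 14352, 14492 and 14487. The libraries within each group lay close together and far from the other group. The mean rose 7.41-fold, from 1949 ± 15.3 to 14444 ± 79.2 (SD, n = 3), with a log2 fold change of 2.89 with a standard error of 0.0351 (adjusted p = 2.12e-27 by limma), ranked 356 from the top. The count is per gene and does not tell the membrane-bound from the soluble form of KIT ligand.

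Cxcl12 had 4914, 5340 and 5030 normalized counts in the 3 control libraries, and 7350, 7381 and 7457 in the 3 dexamethasone libraries. All dexamethasone libraries were above all controls, and the mean was 1.45-fold higher, 7396 ± 55.1 against 5095 ± 219.9 (SD, n = 3). The log2 fold change of 0.54 with a standard error of 0.0375 (adjusted p = 2.67e-12 by limma) was under the cut-off. It was 0.42 at the same total and 0.34 after quantile normalization.

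Per kilobase, Cxcl12 was the higher of the pair in the controls and Kitl with dexamethasone. The ratio of Cxcl12 to Kitl was 1.82, 1.97 and 1.88 in the 3 control libraries, and 0.370, 0.368 and 0.372 in the 3 dexamethasone libraries. The log2 ratio fell by 2.35, a 5.10-fold change, with a two-sided exact permutation p = 0.1, again the smallest that the design allows.

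Il7, the cytokine of early B cells, showed the deepest fall among the members. It had 1885, 2121 and 1992 normalized counts in the 3 control libraries, and 516, 529 and 550 in the 3 dexamethasone libraries. The groups were well apart, and the mean fell 3.76-fold, from 1999 ± 118.5 to 532 ± 17.1 (SD, n = 3). The log2 fold change was -1.91 with a standard error of 0.0569 (adjusted p = 7.23e-20 by limma).

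Vcam1, which encodes the adhesion molecule VCAM1, had 14910, 16229 and 15024 normalized counts in the 3 control libraries. In the 3 dexamethasone libraries it had 7726, 7625 and 7695. The dexamethasone libraries were all below the controls, and the mean fell 2.003-fold, from 15388 ± 731 to 7682 ± 51.8 (SD, n = 3). Its log2 fold change of -1.001 with a standard error of 0.0370 (adjusted p = 6.36e-18 by limma) lay at the cut-off of 1. It was -0.96 without control replicate 2, the highest of the controls, -0.996 without dexamethasone replicate 2 and -0.99 with TMM scaling, so that Vcam1 was then not called and 5 members remained differentially expressed.

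Lepr, the leptin receptor gene, had few reads in all libraries, between 88 and 315. It had 89.1, 86.1 and 84.4 normalized counts in the 3 control libraries, and 300.5, 277 and 287 in the 3 dexamethasone libraries. The groups did not overlap, and the mean rose 3.33-fold, from 86.5 ± 2.37 to 288 ± 11.8 (SD, n = 3). The log2 fold change was 1.72 with a standard error of 0.116 (adjusted p = 1.33e-12 by limma), with the largest standard error of the 8 tested members. Ebf3, a transcription factor gene of the same stromal cells, was nearly absent from the counts, at 0, 0 and 2 reads among controls and 2, 0 and 0 with dexamethasone. At this depth no difference in Ebf3 was detectable.

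Levels were compared between genes as normalized counts per kilobase of exon, with the exon lengths of the GENCODE M21 annotation. In the controls the order from high to low was Csf1 (10309 ± 95.3), Tnfrsf11b (2092 ± 59.7), Vcam1 (1735 ± 82.4), Cxcl12 (623 ± 26.9), Il7 (353 ± 20.9), Kitl (329.7 ± 2.59), Il34 (112 ± 5.08) and Lepr (12.3 ± 0.336; SD, n = 3). With dexamethasone the order was Csf1 (13385 ± 758), Kitl (2444 ± 13.4), Il34 (1961 ± 49.9), Cxcl12 (905 ± 6.75), Vcam1 (866 ± 5.83), Tnfrsf11b (605 ± 30.5), Il7 (93.8 ± 3.03) and Lepr (40.9 ± 1.68; SD, n = 3). The ranges of neighbours in these orders did not overlap, and the closest pairs were Il7 and Kitl in the controls and Cxcl12 and Vcam1 with dexamethasone. Csf1 held the top and Lepr the lowest place of these 8 in both groups.

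The ranks between them turned over. Kitl went from the sixth place to the second and Il34 from the seventh to the third, while Tnfrsf11b went from the second to the sixth. These places depend on the length used, the union of all annotated exons, at 1.96 kb for Il34, 8.18 for Cxcl12 and 8.87 for Vcam1. In normalized counts not divided by length, Il34 with dexamethasone (3842) was below Cxcl12 (7396) and Vcam1 (7682). Among all tested genes, the level of Il34 per kilobase was above that of 37.0% of the genes in the controls and 85.5% with dexamethasone, and that of Kitl above 52.9% and 88.4%. The level of Tnfrsf11b was above that of 88.0% and then 63.2% of the genes, and Csf1 was above 95.9% and 96.2%.

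**Figure D4:**
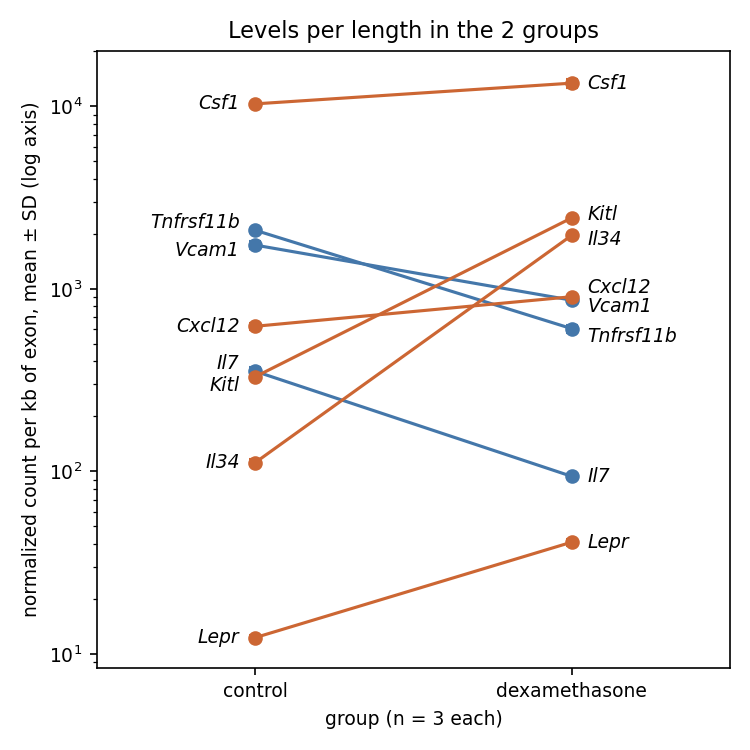
Mean normalized count per kilobase of exon (log axis) of the 8 tested members in the control and dexamethasone groups, with SD over 3 libraries; orange lines mark genes that were higher and blue lines genes that were lower with dexamethasone. Kitl and Il34 cross Tnfrsf11b, Vcam1 and Cxcl12 between the groups, while Csf1 stays on top and Lepr at the bottom.

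For the 4 tested members with an entry in the RefSeq promoter table (build GRCm38.p6), the 250 bases before the annotated start are shown. They were not chosen by their change, though all 4 were higher with dexamethasone, by 1.30-fold to 7.41-fold. Of the 10 members, 6 had an entry, and Tnfrsf11b, Il34, Vcam1 and Il7 had none. The sequences run 5′ to 3′ on the strand of the gene, and capitals mark matches to the motifs named after them. Kitl lies on the plus strand at chr10:100015571-100015820, Cxcl12 on the plus strand at chr6:117168285-117168534, Csf1 on the minus strand at chr3:107760470-107760719, and the upstream of the 2 Lepr entries on the plus strand at chr4:101717157-101717406.
Kitl: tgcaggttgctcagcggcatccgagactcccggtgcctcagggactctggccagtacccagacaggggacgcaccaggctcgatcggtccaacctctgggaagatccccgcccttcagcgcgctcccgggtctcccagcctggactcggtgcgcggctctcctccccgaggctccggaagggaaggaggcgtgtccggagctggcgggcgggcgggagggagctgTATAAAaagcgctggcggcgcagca
Cxcl12: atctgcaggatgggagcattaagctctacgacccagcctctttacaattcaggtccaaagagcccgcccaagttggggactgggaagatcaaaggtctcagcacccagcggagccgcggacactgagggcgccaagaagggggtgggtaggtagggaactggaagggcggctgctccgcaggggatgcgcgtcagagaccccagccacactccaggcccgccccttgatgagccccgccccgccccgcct
Csf1: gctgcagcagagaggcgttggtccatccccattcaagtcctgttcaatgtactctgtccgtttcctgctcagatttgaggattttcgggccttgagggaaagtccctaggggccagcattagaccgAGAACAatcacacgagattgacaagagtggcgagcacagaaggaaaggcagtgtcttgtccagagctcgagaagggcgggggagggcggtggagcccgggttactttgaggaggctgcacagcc
Lepr: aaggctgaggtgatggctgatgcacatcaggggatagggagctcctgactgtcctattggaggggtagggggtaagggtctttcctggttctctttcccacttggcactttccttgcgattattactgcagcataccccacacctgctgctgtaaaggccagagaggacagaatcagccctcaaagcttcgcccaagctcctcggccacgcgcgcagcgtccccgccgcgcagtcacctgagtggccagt

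Both strands of these windows were searched for 5 motifs. The TATA box (TATAAA) was found in the Kitl window, starting 25 bases before the start, and occurs in 12.4% of the 32851 promoter windows of the table. The monomer site of the glucocorticoid receptor (AGAACA) was found in the Csf1 window, starting 124 bases before the start, and occurs in 16.1% of all windows. The full glucocorticoid response element (AGAACA and TGTTCT with 3 bases of any kind between them), which contains the monomer site on each strand, the EBF site (TCCC and GGGA with 2 bases of any kind between them) and the AP-1 site (TGANTCA) were found in none of these 4 windows, and occur in 0.00913%, 0.779% and 6.75% of all windows. The windows of Cxcl12 and Lepr held no match to any of the 5, nor did that of the other Lepr entry. A match is a description of letters only.

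Many receptors and binding partners of the members were low in these cells. All 16 genes of this list had a row, and 8 of them were under the minimum for testing. Tnfrsf11a, the RANK gene, had 0 to 2 reads per library, Kit 0 to 2, Il2rg, a subunit of the interleukin 7 receptor, 0 to 2, Il7r 0 to 3, the interleukin 34 receptor Ptprz1 0 to 3, and leptin itself (Lep) 0 to 1. At these counts no difference was detectable. Tnfsf10, the TRAIL gene, whose product osteoprotegerin also binds, had 6 to 14 reads, and Itga4, a subunit of the VCAM1 receptor, had 1 to 13.

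Of the 8 tested receptor genes, 2 were differentially expressed and higher and 1 lower, with a median log2 fold change of -0.10. Sdc1, a syndecan that binds interleukin 34, rose from 10585 ± 426 to 22195 ± 853 (SD, n = 3) normalized counts, and its log2 fold change of 1.068 became 0.95 at the same total and 0.88 after quantile normalization. Itgb7 rose from 224 ± 11.1 to 558 ± 54.0 (SD, n = 3), and Itga9 fell from 1164 ± 72.7 to 493 ± 66.9 (SD, n = 3). These encode integrin subunits that take part in binding to VCAM1. Itgb1, the common subunit, had 97927 ± 2506 and 106037 ± 3193 (SD, n = 3), a log2 fold change of 0.12 that shrank to 0.0006 at the same total.

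The receptors of CSF1 and CXCL12 carried few counts. Csf1r had 40.4, 43.1 and 54.5 normalized counts in the 3 control libraries and 28.6, 28.3 and 27.9 in the 3 dexamethasone libraries, with a log2 fold change of -0.67 (adjusted p = 0.0125 by limma), under the cut-off. Cxcr4, the signalling receptor of CXCL12, had 11.3 ± 3.81 and 19.9 ± 4.42 (SD, n = 3) normalized counts, which did not pass the test (limma adjusted p = 0.0556). Ackr3, the scavenging receptor of CXCL12, had 251 ± 15.8 and 200.5 ± 14.8 (SD, n = 3), a log2 fold change of -0.32. Lgr4, a further receptor of RANKL, had 3971 ± 126 and 3167 ± 84.4 (SD, n = 3), a log2 fold change of -0.33, both under the cut-off.

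Of 22 other genes through which the osteoblast lineage regulates osteoclasts, 20 had a row and 14 were tested. Of these, 3 were differentially expressed and higher and 4 lower, with a median log2 fold change of -0.18. The receptors of the calcium-regulating hormones fell, as Pth1r, the parathyroid hormone receptor, went from 6005 ± 147 to 1310 ± 46.0 and Vdr, the vitamin D receptor, from 2694 ± 101 to 933 ± 19.1 (SD, n = 3) normalized counts. Wnt5a fell from 1030 ± 33.7 to 464 ± 12.2, and Il11 from 24.9 ± 2.53 to 11.3 ± 1.01 (SD, n = 3), a low gene whose log2 fold change of -1.08 was -0.71 with a pseudocount of 10.

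The genes of this list that rose were of several kinds. The chemokine gene Ccl2 rose from 149 ± 10.9 to 680 ± 38.8 and Efnb2, which encodes ephrin B2, from 1010 ± 18.3 to 4013 ± 236 (SD, n = 3) normalized counts. Tgfb1 rose from 3877 ± 140 to 8234 ± 412 (SD, n = 3), a log2 fold change of 1.09 that was 0.97 at the same total. Sema3a, a semaphorin that restrains osteoclasts, had 15907 ± 393 and 25604 ± 176 (SD, n = 3), a log2 fold change of 0.69, and Ptgs2, which encodes the prostaglandin synthase COX2, had one of -0.21, both under the cut-off. Ephb4, the receptor of ephrin B2, did not pass the test (3808 ± 107 and 3911 ± 310, SD, n = 3), and its sign flipped at the same total.

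Of 24 other genes of the stromal niche, 23 had a row and 19 were tested, with 2 differentially expressed and higher, 4 lower and a median log2 fold change of -0.49. Spp1, which encodes osteopontin, rose from 33595 ± 988 to 1279674 ± 29571 (SD, n = 3) normalized counts, or by 5.25 on the log2 scale. Pdgfra rose from 2600 ± 57.5 to 7787 ± 504 (SD, n = 3). Of the 4 that fell, 3 encode signalling ligands. Igf1 went from 2034 ± 68.9 to 122 ± 5.13, Bmp4 from 5876 ± 279 to 686 ± 35.5, and the Notch ligand Jag1 from 10366 ± 230 to 3785 ± 95.8 (SD, n = 3) normalized counts. Nt5e, which encodes the surface enzyme CD73, fell from 3384 ± 26.4 to 1292 ± 13.5 (SD, n = 3). Under the cut-off, the adhesion genes Cdh11 and Cdh2 had log2 fold changes of -0.70 and 0.79 and the mesenchymal factor Prrx1 one of -0.86, while Fn1 and Pdgfrb did not pass the test.

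**Figure D5:**
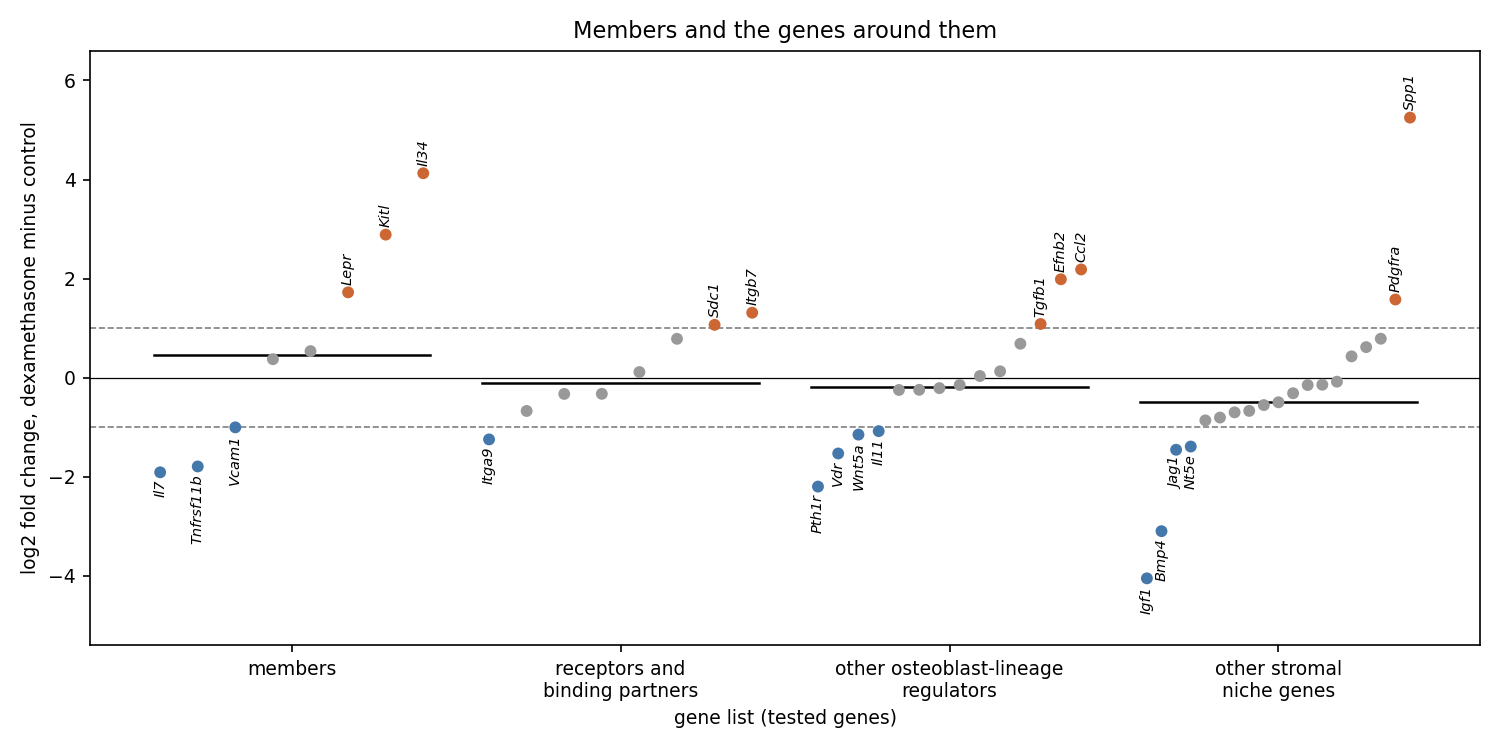
Log2 fold change (dexamethasone minus control) of the tested genes among the members and the 3 lists around them; orange and blue points are differentially expressed and higher or lower, grey points are not, black bars are medians and dashed lines the cut-off of 1. The medians are 0.46, -0.10, -0.18 and -0.49, and each list holds genes that rose and genes that fell.

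The genes whose pattern over the 6 libraries lay nearest to that of Tnfrsf11b were Nfatc4, Mxd4 and Sobp. Likeness was the Euclidean distance between mean-centred log2 values, taken over 12020 other genes averaging 100 or more normalized counts, and it was 0.0575, 0.0640 and 0.0657. With 6 libraries in 2 groups this distance mostly reflects the difference between the groups. The log2 fold changes of these genes were -1.80, -1.83 and -1.80, beside -1.79 for Tnfrsf11b.

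Markers of several cell types moved between the groups beside the members, and their part in the changes of the members was not tested. All 8 listed osteoblast markers were differentially expressed and lower. Their summed levels were 1976430 to 2103562 normalized counts in the control libraries and 751472 to 845231 in the dexamethasone libraries, most of it Col1a1 and Col1a2. The highest were Col1a2, Col1a1 and Runx2 (log2 fold changes of -1.05, -1.88 and -1.75). Spp1, not on this list, is an osteogenic marker in the study. There osteopontin, Osterix and Osteocalcin were all lower with dexamethasone in tdTomato-labelled osteoblast-lineage cells of tamoxifen-treated mice. Those cells were isolated by the label and not by Osteocalcin. Here Spp1 rose, with a log2 fold change of 5.25. Of the genes for osteocalcin, by which the cells were isolated, Bglap had 107 ± 12.9 and 12.2 ± 2.79 and Bglap2 had 324 ± 21.1 and 31.3 ± 2.17 (SD, n = 3) normalized counts. Both were singled out after their values were seen, and as their sequences are near-identical, how the count divided reads between them is uncertain. All 8 proliferation genes were differentially expressed and higher, with sums of 32316 to 34578 and 199436 to 213188, and Mki67, Top2a and Cdk1 had log2 fold changes of 2.74, 2.72 and 2.38. Of 4 tested osteocyte markers, 1 was called, Dmp1, which rose from 38.5 ± 2.66 to 5639 ± 326 (SD, n = 3), while Pdpn and Phex had log2 fold changes of 0.68 and 0.60. The sums of this list were 8220 to 8760 and 18449 to 19774, most of it Pdpn.

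Blood-cell and osteoclast markers were low or mixed. Of 8 pan-hematopoietic markers, 5 were tested, 2 called higher and 2 lower, with sums of 6694 to 6958 in the controls and 8103 to 8586 with dexamethasone, most of it Arhgdib (6720 and 7482 on average). The defining gene Ptprc (CD45) had 2 to 5 reads per library, while Cd53 was higher at 283 ± 24.8 against 15.7 ± 3.99 and Itgb2 rose from 54.6 ± 10.2 to 503 ± 26.2 (SD, n = 3). Of 9 macrophage markers, 5 had a row and 4 were tested, with 3 called higher and 1 lower. Among the higher were Cd68 and Cd14 (log2 fold changes of 1.78 and 1.21), and the lower was Lyz2 (-1.50). The sums were 1413 to 1446 in the controls, mostly Lyz2, and 1449 to 1641 with dexamethasone, mostly Cd68 and Cd14. Of 10 osteoclast markers, 9 had a row and 5 were tested, with 2 called higher and 1 lower. The sums were 19602 to 20850 and 20696 to 22311, most of it Ctsk, Itgb3 and Nfatc1. Ctsk and Nfatc1, which other cells also express, had log2 fold changes of -0.65 and -0.08, and Itgb3 one of 1.85. The other called genes, both low, were Atp6v0d2, from 5.14 ± 2.77 to 33.0 ± 9.34, and Mmp9, from 20.6 ± 1.24 to 9.05 ± 3.48 (SD, n = 3). The defining marker Acp5, under the minimum for testing, had 0 reads in each control library and 7, 26 and 17 reads in the 3 dexamethasone libraries. Also under it, Ocstamp had 0 to 6 reads in the controls and 6 to 20 with dexamethasone. Oscar had 3 to 14 and 6 to 12 reads, and Calcr 0 to 4 and 0 to 1. The B lymphoid list had 1 tested gene, Pax5, which fell from 33.8 ± 9.30 to 6.49 ± 3.66 (SD, n = 3), with Cd79a at 1 to 9 reads, Vpreb1 at 1 to 6 and sums of 32.3 to 57.1 and 9.54 to 26.7.

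The endothelial list had 4 tested genes with 0 called. Kdr and Pecam1 had log2 fold changes of 0.25 and 0.74 with limma adjusted p-values of 0.00812 and 0.0419. The limma adjusted p-values were 0.00587 and 0.04 with TMM scaling, but 0.124 and 0.0816 at the same total. By DESeq2 the adjusted p-values were 0.0213 and 0.0991. Egfl7 had 13.6 ± 5.74 and 14.8 ± 6.47 (SD, n = 3) normalized counts, and the defining marker Cdh5 had 0 to 2 reads. The sums of this list were 381 to 417 and 456 to 491, most of it Kdr. The adipocyte list had 3 tested genes with 1 called. Fabp4 had 2 to 3 reads in the control libraries and 1448 ± 63.4 (SD, n = 3) normalized counts with dexamethasone, at least 493-fold higher, Cebpa had a log2 fold change of 0.98, Pparg did not pass the test, Adipoq had 1 to 9 reads, and the sums were 274 to 357 and 1918 to 2065.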

How the data were processed

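RNA was sequenced from bone cells of 3 control and 3 dexamethasone-treated mice (C57BL/6 in the labels, C57BL/6J in the methods) or pools, as stranded mRNA libraries. Alignment and gene counting by the authors used STAR 2.7.10a, and each library was then divided by its DESeq2 1.36.0 size factor. The submitters' processing notes name GRCm39. The annotation release and the strand setting are not given in the sources used here. The deposited values are thus a signal, the normalized count. Whole reads were recovered from them (100% of values within a relative tolerance of 0.001), with 72596611 to 89910728 reads per library. All columns were used.

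GENCODE M21 (GRCm38) served for symbols (28087 of 29616 genes), exon lengths and overlaps, so no gene coordinates are given. The only coordinates printed are those of the promoter windows, on build GRCm38.p6 and not the GRCm39 of the processing notes. Normalized counts were compared as log2 values after adding 1, which understates the fold change of low genes, with limma 3.58.1 (mean-variance trend, R 4.3.3) and Benjamini-Hochberg adjustment over 17442 genes with a mean of at least 10. Differential expression meant a log2 change of 1 or more with adjusted p-value under 0.05, after the study's cut-offs. A bound against 3 reads or fewer used the highest of the group's limits of 3 reads. Replicates differed by more than sampling noise (chi-square per degree of freedom 3.52 to 29.6). Since separate cultures or animals are not stated, p-values measure the spread between these libraries. They also depend on the model, as limma drew the variance of each gene in part from a trend shared by all genes. Without the trend, the limma adjusted p-values were 4.13e-06 for Tnfrsf11b and 7.37e-07 for Kitl, and 6 members were called. The methods were tested on simulated counts, with fewer changed genes than here and the same noise setting for all genes.

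The members and lists were chosen with earlier results of these data known. Genes named by rule are the members, the receptor list, and the 6 highest and all called genes of the other pathway lists. The rule adds the 3 highest of each marker or control list and the 3 nearest to Tnfrsf11b. Named outside the rule were Bglap, Bglap2, Ptprc, Acp5, Atp6v0d2, Mmp9, Ocstamp, Oscar, Calcr, Cdh5, Adipoq and Gm15894. The alternatives changed the pseudocount, the filter, the scaling or the trend, dropped the fold requirement or 1 library at a time, blocked on replicate number, or ran DESeq2 1.42.0 and edgeR 4.0.16 on the recovered reads.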

Additional observations from a re-analysis of the deposited data

How the results depend on the processing

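The direction of all 8 tested members held under every alternative run. Over these, the log2 fold change was 4.01 to 4.16 for Il34, 2.71 to 2.90 for Kitl, 1.61 to 1.80 for Lepr, 0.26 to 0.41 for Csf1, 0.34 to 0.57 for Cxcl12, -1.22 to -0.96 for Vcam1, -1.97 to -1.76 for Tnfrsf11b and -2.02 to -1.86 for Il7. Vcam1 alone lost its call, in 3 of 144 values. The count of members called was 5 to 6 with any single library removed (3 higher, 2 to 3 lower). Without the fold requirement, 5 members were higher. The ratios moved by less than the spread between libraries in every alternative. The planned ratio of Tnfsf11 to Tnfrsf11b was not run, since Tnfsf11 is not analysed here.

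Over all genes, 3894 were called (2037 higher, 1857 lower). By construction the count was 2170 (1350 and 820) at a mean of at least 100 and 12645 (6497 and 6148) without the fold requirement. It was 5326 with no filter. Leaving out a library gave 3888 to 3922.

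The replicate numbers share only a number, since the deviations of same-numbered libraries had correlations of -0.100, -0.105 and -0.020. With the replicate block 3897 genes and 6 members were called, and the ratios were 3.75 and -2.35, with exact sign-flip p = 0.25, the smallest for 3 pairs. The block changed no call among the listed genes named by rule.

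Among the other 57 listed genes named by rule and tested, 11 of 1019 values in 4 genes with small changes reversed. The cause was not tested. Ephb4 (0.04) went to -0.078 at the same total and -0.122 after quantile normalization, Arhgdib (0.16) to -0.057 after quantile normalization, and Pparg (-0.001) to 0.011 with TMM and 0.107 after quantile normalization. With a library left out, Ephb4 went from -0.0148 to 0.0989, Pparg from -0.11 to 0.139 and Egfl7 from -0.241 to 0.375. Calls were lost in 7 further values (4 genes) and gained in 21 (17 genes). All 17 genes gained a call by construction when the fold requirement was dropped. In the other alternatives only Nr3c1 and Cebpa gained a call. Nr3c1 went to -1.039 at the same total and -1.118 after quantile normalization. Cebpa went to 1.109 without control replicate 2 and 1.051 without dexamethasone replicate 2. Depth limits Ebf3 and the receptors at or under 3 reads.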
